A study of Mus musculus with 2 samples.

Results

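The matrilins, cartilage oligomeric matrix protein and the thrombospondins are secreted adaptor proteins of the extracellular matrix, and their 9 genes (Matn1 to Matn4, Comp, and Thbs1 to Thbs4) were taken as all probe sets whose platform gene symbol is exactly that gene. They gave 14 of the 45101 probe sets on the array and 9 of its 18193 named genes. They were read in superficial zone cells, the flattened chondrocytes at the surface of articular cartilage, from the femur and tibia of ICR mice, 4 days after birth, and grown in DMEM with 10% serum. Cells received 10 μM retinoic acid, the active metabolite of vitamin A, for 24 h (n = 1 array), or were cultured without it (control, n = 1 array). No genotype other than the ICR strain is given, and the labels do not say how many animals or cell preparations stood behind each culture. With 1 array per group there is no replicate check and no test. Each fold below describes these arrays, and their number limits the precision of every value.

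Matrilins are built from von Willebrand factor A domains and EGF-like repeats and assemble through a coiled coil at their C-terminus. In cartilage they bridge collagen fibrils and aggrecan. Matn1 and Matn3 are largely cartilage genes, whereas Matn2 and Matn4 are used by many connective tissues. Thrombospondins are calcium-binding glycoproteins in 2 subgroups: Thbs1 and Thbs2 (subgroup A) encode trimers that carry type 1 repeats and influence angiogenesis and cell adhesion, and Thbs3, Thbs4 and Comp (subgroup B, with Comp also called thrombospondin 5) encode pentamers without those repeats. Comp binds collagens II and IX and matrilin 3 and is abundant in cartilage, tendon and ligament.

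Values are MAS5 signals, the Affymetrix summary of a probe set on a linear scale. A gene was represented by its brightest probe set, and signals at or below the array's median (29.7 with retinoic acid, 26.5 in control) were raised to that median. A gene above the median on at least 1 array was counted as measured, as 11884 genes were. All 14 probe sets of the 9 genes were above the median on both arrays, so none of their ratios is a bound. Levels of different probe sets cannot be compared with each other, because each binds its own target with its own strength. Genes are therefore compared by their ratios. Sums of marker signals weigh bright probe sets most, so each sum is read only against the same sum on the other array. Probe sets of one gene read the same RNA. The SD of their log2 ratios, pooled over 4993 genes, was 0.30, and it holds no variation between cultures.

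**Figure D1:**
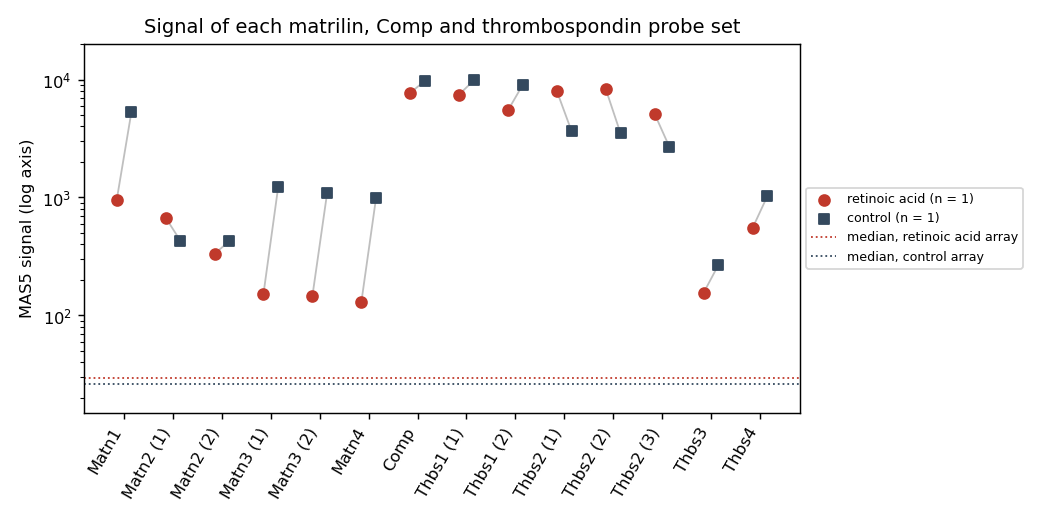
MAS5 signal (log axis) of each of the 14 probe sets on the retinoic acid array (red circle) and the control array (dark square). Probe sets of one gene are numbered from the brightest, and dotted lines mark each array's median signal. The Matn1, Matn3 and Matn4 pairs stand furthest apart, with the brighter Matn3 probe set at 153 with retinoic acid and 1224 in control, and in the 3 Thbs2 pairs the retinoic acid signal is the higher.

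Matn1, Matn3 and Matn4 were lower with retinoic acid by more than 4-fold, Matn2 had no settled direction, Thbs2 was about 2-fold higher, and Comp, Thbs1, Thbs3 and Thbs4 were lower by less than 2-fold. Of the 9 genes 3 were at least 2-fold lower, where 4.34% of all measured genes were, and the same 3 were at least 4-fold lower, where 0.757% of all measured genes were. Thbs2 alone was at least 2-fold higher, where 6.54% of measured genes were. The median log2 ratio of the 9 genes was −0.78, against 0.017 over all measured genes. The 4 matrilins had a median of −2.70 and the 5 thrombospondin genes, Comp included, of −0.40.

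Matn1, which encodes the founding matrilin of cartilage, read 958 with retinoic acid and 5311 in control. That is 5.54-fold lower, and 52 of the 11884 measured genes (0.438%) had a lower ratio. Matn3, whose product binds Comp and type IX collagen and whose human counterpart is mutated in multiple epiphyseal dysplasia, was read by a pair of probe sets. The brighter gave 153 with retinoic acid and 1224 in control, and the dimmer 147 with retinoic acid and 1085 in control. Both probe sets placed Matn3 low with retinoic acid, 7.99-fold and 7.41-fold lower, and their log2 ratios differed by 0.11. Only 29 measured genes had a lower ratio than the brighter one. By its name the brighter probe set is not unique to a single transcript, unlike the dimmer. Matn4, the matrilin gene with a wider tissue range, read 129 with retinoic acid and 983 in control. It was 7.59-fold lower, which 33 measured genes exceeded. Its log2 ratio of −2.92 and that of Matn3 (−3.00) differed by less than the scatter between probe sets, and its log2 ratio minus that of Matn1 was −0.45, a gap not shown to exceed the scatter of such a difference. Matn3 and Matn4 were still above the array's median with retinoic acid, at 5.15 and 4.36 times it, and Matn1 was at 32.2 times it, so the low readings of these genes were not at the floor.

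Matn2, which encodes a matrilin of the basement membrane region and of fibrous connective tissue, gave opposite signs in its probe sets. The brighter, whose name marks it as shared by several transcripts of the gene, read 674 with retinoic acid and 430 in control, 1.57-fold higher. The other read 333 with retinoic acid and 426 in control, 1.28-fold lower. The log2 ratios were 0.65 and −0.36. Among 2956 genes with exactly 2 probe sets above the median on both arrays, the median difference in log2 ratio was 0.23, and 82 genes (2.77%) had one at least as large as Matn2. Opposite signs as such were common, in 26.1% of those genes. Neither Matn2 reading reached 2-fold, and which transcripts each probe set reads was not analysed here.

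The RefSeq sequences at the starts of the genes with ratios furthest from 0 are shown here so that their letters can be set beside those ratios. Each holds 250 bases before and 50 after an annotated start, on GRCm38.p6, written 5′ to 3′ on the gene's strand. Positions count the start base as 0. Capitals mark matches, on either strand, to any of 7 motifs: AACAAT for SOX factors, its SOX variant ACAAAG, the retinoid receptor half-site AGGTCA, its variant half-site AGTTCA, the same-strand repeat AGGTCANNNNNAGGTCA with a gap of 5 bases, the TATA box TATAAA, plus the GC box GGGCGG. The repeat holds its own half-sites. Matn4 has a pair of annotated starts, and the outer is the start of the gene. The regions are chr4:130944135-130944434 on the plus strand for Matn1, chr12:8947679-8947978 on the plus strand for Matn3, chr2:164405111-164405410 (outer) and chr2:164404769-164405068 (inner) on the minus strand for Matn4, and chr17:14694213-14694512 on the minus strand for Thbs2.
Matn1: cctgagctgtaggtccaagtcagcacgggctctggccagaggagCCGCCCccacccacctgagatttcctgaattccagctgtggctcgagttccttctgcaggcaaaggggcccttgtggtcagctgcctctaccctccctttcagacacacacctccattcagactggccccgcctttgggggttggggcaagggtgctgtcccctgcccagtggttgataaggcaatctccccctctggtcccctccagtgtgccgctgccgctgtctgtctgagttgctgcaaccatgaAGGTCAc
Matn3: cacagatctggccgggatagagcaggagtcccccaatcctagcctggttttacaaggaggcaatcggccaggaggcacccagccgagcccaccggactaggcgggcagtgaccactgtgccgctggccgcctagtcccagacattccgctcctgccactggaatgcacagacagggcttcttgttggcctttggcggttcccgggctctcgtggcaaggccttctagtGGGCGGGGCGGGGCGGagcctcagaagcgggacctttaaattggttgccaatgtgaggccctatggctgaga
Matn4 outer start: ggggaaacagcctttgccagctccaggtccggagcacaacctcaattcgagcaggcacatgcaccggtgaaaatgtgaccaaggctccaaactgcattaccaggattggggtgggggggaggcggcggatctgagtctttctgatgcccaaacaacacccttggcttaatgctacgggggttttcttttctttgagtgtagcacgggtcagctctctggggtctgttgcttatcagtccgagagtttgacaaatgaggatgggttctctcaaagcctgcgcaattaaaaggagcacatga
Matn4 inner start: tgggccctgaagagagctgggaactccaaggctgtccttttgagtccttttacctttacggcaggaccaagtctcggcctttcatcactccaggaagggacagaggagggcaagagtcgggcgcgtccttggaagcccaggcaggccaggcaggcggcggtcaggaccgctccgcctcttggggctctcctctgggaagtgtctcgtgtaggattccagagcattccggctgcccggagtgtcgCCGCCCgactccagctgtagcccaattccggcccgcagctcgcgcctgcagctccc
Thbs2: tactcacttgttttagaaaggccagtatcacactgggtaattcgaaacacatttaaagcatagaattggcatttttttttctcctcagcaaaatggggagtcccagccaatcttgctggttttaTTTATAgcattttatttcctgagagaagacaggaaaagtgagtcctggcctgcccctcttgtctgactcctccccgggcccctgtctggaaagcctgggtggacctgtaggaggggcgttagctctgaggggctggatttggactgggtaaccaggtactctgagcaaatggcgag

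None of the 4 windows of the lower matrilins held a SOX match, and of 32851 mouse windows of the same length 10.7% held AACAAT and 18.7% ACAAAG. Matn1 held AGGTCA at 43 to 48 bases past its start, 1 base after an ATG, and a GC box before the start. AGGTCA stood in 16.3% of all windows. The direct repeat was in no window shown and in 3 of all 32851, and AGTTCA, found in 14.0% of all windows, was in none shown either. Matn3 held 3 GC boxes that overlap each other, at −22 to −7 from its start. The inner Matn4 start had 1 GC box and the outer no match. GC boxes were in 35.7% of all windows. Thbs2 held a TATAAA match on the opposite strand, at −126 to −121 from its start, and 13.6% of all windows held one. A match is only a run of letters. Other spellings of these sites were not searched, so the lack of a match does not mean the lack of a site. Enhancers can also lie outside these windows. Sequences were given for 6 of the 9 genes. Comp, Thbs1 and Matn2 had none in the table used, and the windows of Thbs3 and Thbs4, which were within 2-fold, were searched but are not printed. Thbs3 held the only SOX match among the members' windows, ACAAAG on the opposite strand at −88 to −83 from its start, and 1 GC box. Thbs4 held 3 GC boxes and no other match.

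**Figure D2:**
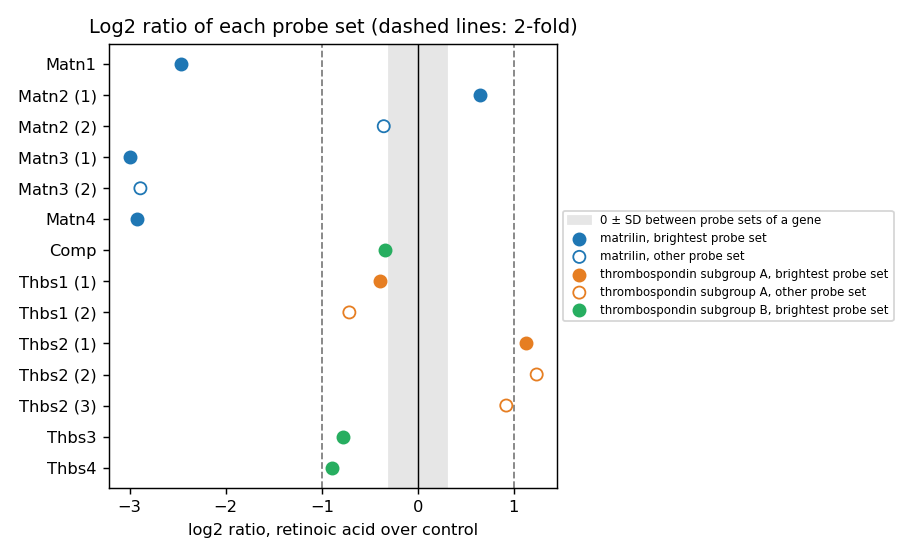
Log2 ratio of retinoic acid over control for each of the 14 probe sets. Filled points are the brightest probe set of a gene and open points its others, the grey band spans 0 ± 0.30 (SD between probe sets of a gene), and dashed lines mark 2-fold. Matn1, Matn3 and Matn4 lie between −3.00 and −2.47, the 3 Thbs2 readings between 0.92 and 1.24, and the Matn2 readings fall on opposite sides of 0.

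Thbs2, whose product is an inhibitor of angiogenesis that also shapes collagen fibrils, was the gene of the set with the highest ratio. Its brightest probe set read 7920 with retinoic acid and 3636 in control. The second read 8232 with retinoic acid and 3492 in control, and the third 5066 with retinoic acid and 2676 in control. All 3 were higher with retinoic acid, by 2.18-fold, 2.36-fold and 1.89-fold, and the last is short of 2-fold. The third probe set is, by its name, not unique to a single transcript. The SD of the 3 log2 ratios was 0.16. Of measured genes 643 (5.41%) had a higher ratio than the first probe set.

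Thbs1, the other subgroup A gene, encodes an activator of latent TGF-β and a ligand of CD36 and CD47. The brighter of its probe sets read 7461 with retinoic acid and 9838 in control, and the other 5496 with retinoic acid and 9010 in control. Both were lower with retinoic acid, 1.32-fold and 1.64-fold. The Thbs2 and Thbs1 log2 ratios differed by 1.52, and the lowest Thbs2 reading (0.92) stood above the highest Thbs1 reading (−0.40). A further probe set that the platform assigns to both Thbs1 and Pald1 was not used.

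Comp read 7688 with retinoic acid and 9775 in control, 1.27-fold lower, on its only probe set. Its log2 ratio of −0.35 is close to the scatter between probe sets of a gene, and 21.7% of measured genes had a lower one. Thbs4, which is expressed in tendon, muscle and the nervous system, read 553 with retinoic acid and 1024 in control. Thbs3, which is expressed in developing bone and cartilage, read 156 with retinoic acid and 268 in control. Thbs4 was 1.85-fold and Thbs3 1.71-fold lower, and 5.39% and 7.05% of measured genes had a lower ratio. The 3 subgroup B genes were thus all lower, by log2 ratios of −0.35 to −0.89, and none by 2-fold.

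Comp and Thbs1 had high signals on both arrays, whose highest values were 13926 with retinoic acid and 13752 in control. In 14 genes with 1 probe set above 8000 and a dimmer one below 4000 with a mean above 500, the bright probe set had the smaller ratio in 13, with a median absolute log2 ratio of 0.30 against 0.51 for the dimmer. Of the 14 probe sets described here 4 exceeded 8000 on at least 1 array: that of Comp, both of Thbs1 and the second of Thbs2. Comp has no dimmer probe set to read, so whether its ratio is compressed was not tested. For Thbs1 the probe set with the lower signals gave the larger ratio. Thbs2 went the other way: its probe set above 8000 gave the largest ratio (2.36-fold) and its dimmest the smallest (1.89-fold).

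**Figure D3:**
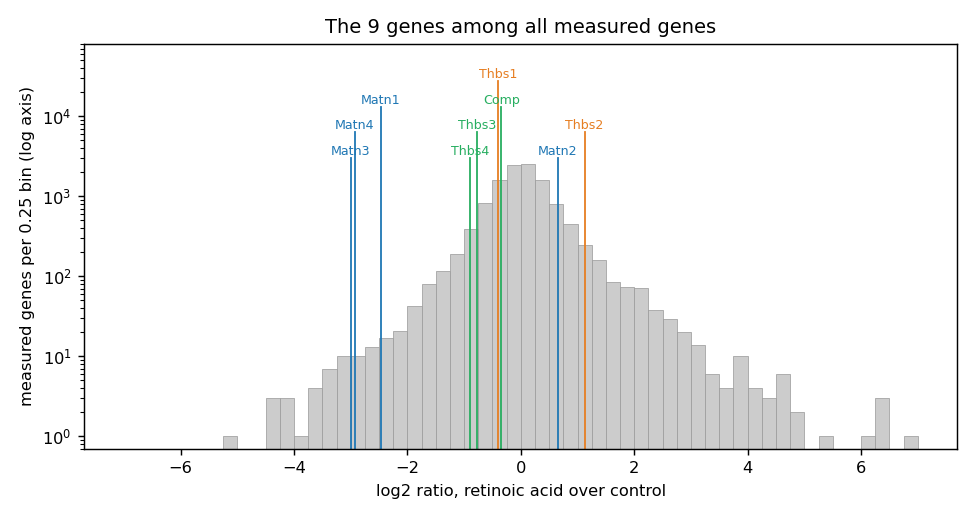
Number of measured genes (log axis) per 0.25 step of the log2 ratio of retinoic acid over control (grey bars, 11884 genes), with vertical lines at the 9 genes' brightest probe sets. Matn3, Matn4 and Matn1 stand in the sparse left tail, and the line of Comp at −0.35 falls in the dense centre.

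Markers of chondrocytes were lower beside the matrilins. All 6 (Col2a1, Acan, Sox9, Hapln1, Cnmd and Snorc) were above the median on both arrays. Of them 5 were at least 2-fold lower, where 4.34% of all measured genes were. The median log2 ratio of the 6 was −3.20, and their summed signal was 11248 with retinoic acid and 31369 in control. Prg4, which encodes lubricin and marks the superficial zone, read 1148 with retinoic acid and 1920 in control. In RNA from a whole culture, fewer cells of a type and less RNA per cell cannot be told apart, and the part of cell makeup in the matrilin and thrombospondin ratios was not tested. Comp and Thbs4 are also expressed in tendon. The 4 tendon markers summed to 1010 with retinoic acid and 1163 in control, with a median log2 ratio of −0.71 and 2 of them at least 2-fold lower. Scx was 2.38-fold lower by its brightest probe set, with its other probe set of the opposite sign, Kera at least 2.21-fold lower, Tnmd 1.21-fold lower and Mkx 1.90-fold higher. The 4 synovial fibroblast markers summed to 1966 with retinoic acid and 1741 in control, a sum that Vcam1 (2.30-fold higher) raised, while their median log2 ratio was −0.53. Another Vcam1 probe set had a log2 ratio of 0.57, short of 2-fold. Thy1 was 2.52-fold and Cd55 at least 2.06-fold lower, and Pdpn read 710 with retinoic acid and 724 in control. The 5 smooth muscle and pericyte markers summed to 5740 with retinoic acid and 4721 in control, mostly Acta2 (1.37-fold higher), and Tagln was 1.99-fold higher. Their median log2 ratio was −0.36, since Cspg4 was 9.30-fold and Des 2.27-fold lower, and Myh11 was at or below the median on both arrays. Endothelial markers (4 genes), platelet and megakaryocyte markers (4) and macrophage markers (5), cell types that can carry Thbs1, summed to 72.3, 262 and 239 with retinoic acid, against 55.3, 233 and 189 in control. Pecam1, Cdh5, Tek, Gp9 and Ptprc were at or below the median on both arrays, and Kdr was above it only with retinoic acid. The median log2 ratio was 0.21 for the platelet and megakaryocyte markers and 0.19 for the macrophage markers. Members went both ways: Pf4 was 2.16-fold higher and Gp1bb 1.72-fold lower, and Cd14 was 1.81-fold higher and Csf1r 1.12-fold lower. The 3 osteoblast markers with a probe set of a single gene symbol summed to 163 with retinoic acid and 212 in control. Their median log2 ratio, however, was 0.18. Bglap was listed but had no such probe set. Sp7 was 3.01-fold lower, whereas Ibsp was 1.13-fold and Dmp1 at least 1.54-fold higher. No marker was listed at 0.

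Several matrix molecules of the network that matrilins and Comp belong to were lower as well. The median log2 ratio of the 14 partner genes was −0.73, and 6 of them passed 2-fold downward and none upward. Col2a1, Acan and Hapln1 are also among the chondrocyte markers above, so these lists share genes. Of all measured genes 4.34% passed downward and 6.54% upward. Acan, the aggrecan gene, was 32.3-fold lower and Hapln1, the link protein gene, 9.37-fold lower. The type IX and XI collagen chain genes Col9a3 and Col11a2 were 3.59-fold and 3.18-fold lower. Chad was just above the median in control only and has no fold. Some partners, like Comp, were bright and had small ratios: Col2a1, the main collagen gene of cartilage, read 7366 with retinoic acid and 9538 in control.

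Among 8 measured transcription factor genes of chondrocytes, 3 passed 2-fold downward and none upward, and the median log2 ratio was −0.67. The shares over all measured genes were 4.34% downward and 6.54% upward. Sox9 is counted among the chondrocyte markers too. Sox9, which drives the cartilage matrix genes, read 94.8 with retinoic acid and 1024 in control, 10.8-fold lower. Its partner Sox6 was 2.27-fold lower and Runx3 3.51-fold lower. The probe sets of Sox6 had log2 ratios from −1.58 to −0.92, the last short of 2-fold. Sox5 read 96.3 with retinoic acid and 151 in control. Runx2 was listed too, but had no probe set of a single gene symbol.

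Proteases known to cut Comp, thrombospondins or matrilins had a median log2 ratio of 1.28. Of the 9 measured, 5 passed 2-fold upward and none downward, where 6.54% and 4.34% of all measured genes did. Adamts1, which cleaves thrombospondins 1 and 2, read 2818 with retinoic acid and 606 in control, 4.65-fold higher. Adamts4, an aggrecanase that also cuts Comp, was 2.42-fold higher. The collagenase gene Mmp13 was 3.07-fold higher, and the gelatinase gene Mmp9 at least 5.15-fold higher, since its control signal was below the median. Only transcripts were read, and Comp and matrilin protein was not measured.

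Receptors of thrombospondins went both ways, with a median log2 ratio of 0.41. Of the 10 measured, 3 passed 2-fold upward and 1 downward, where 6.54% and 4.34% of all measured genes did. Sdc1, a heparan sulfate proteoglycan gene, was 2.56-fold higher, the integrin gene Itga3 2.11-fold higher and Lrp1, which clears thrombospondins from the cell surface, 2.03-fold higher. Another Sdc1 probe set was short of 2-fold, at a log2 ratio of 0.73. The laminin receptor gene Itga6 was 2.81-fold lower. Cd47 read 1327 with retinoic acid and 1776 in control, and Cd36 was at or below the median on both arrays.

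Thrombospondin 1 activates latent TGF-β, and the genes of latent TGF-β had a median log2 ratio of 0.74. Of the 7 measured, 3 passed 2-fold upward with retinoic acid and none downward, where 6.54% and 4.34% of all measured genes did. Tgfb2 was 2.77-fold, the latent binding protein gene Ltbp3 2.34-fold and Tgfb3 2.07-fold higher. Tgfb1 read 88.3 with retinoic acid and 83.7 in control.

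Genes that share a domain with the matrilins or thrombospondins gave a mixed picture. Of 8 other measured matrix genes with von Willebrand A domains, Vit, which encodes vitrin, was 3.83-fold lower. By their brightest probe sets the others were within 2-fold, and the median log2 ratio of the 8 was −0.52. Other probe sets of Col6a2 and Col14a1 had log2 ratios as low as −1.03 and −1.01. The type VI collagen genes Col6a1, Col6a2 and Col6a3 were 1.77-fold, 1.85-fold and 1.78-fold lower. Of 16 other measured genes with thrombospondin type 1 repeats, 4 passed 2-fold upward and 4 downward, and the median was −0.020. Over all measured genes the shares were 6.54% upward and 4.34% downward. Adamtsl1 was 14.3-fold and Thsd4 at least 4.06-fold higher, whereas Rspo3, an enhancer of Wnt signalling, was 7.64-fold lower and its paralog Rspo2 6.55-fold lower. The 10 chaperone genes of the secretory pathway, through which Comp and matrilins are folded, all stayed within 2-fold. So did 10591 of the 11884 measured genes. By their brightest probe sets the chaperone genes ran from −0.32 to 0.24 on the log2 scale. Other probe sets reached −0.49 for Hspa5 and 0.55 for Pdia3. P4hb, a subunit of collagen prolyl hydroxylase, was 1.25-fold lower and Ppib, a proline isomerase, 1.22-fold lower.

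**Figure D4:**
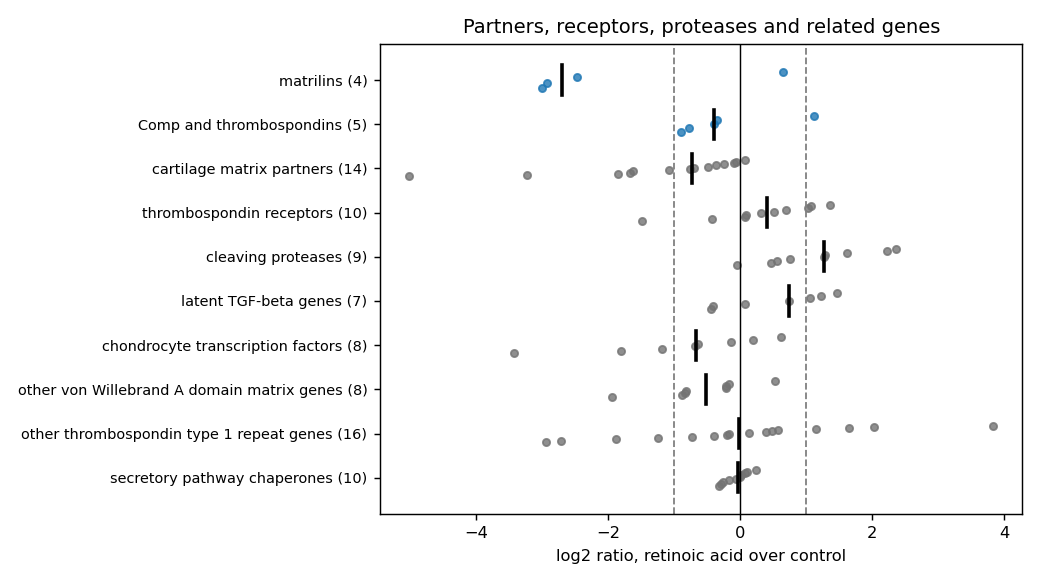
Log2 ratio of retinoic acid over control for the measured genes of the matrilins, of Comp with the thrombospondins (blue) and of 8 related lists (grey), with the number of genes in brackets, a black bar at each median and dashed lines at 2-fold. The matrilin median is −2.70, that of the proteases 1.28, and all 10 chaperone genes lie within 2-fold.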

How the data were processed

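Each culture was read on 1 Affymetrix Mouse Genome 430 2.0 array from 100 ng of total RNA, per the labels' protocols. The authors deposited linear intensities, 1 MAS5 value per probe set; the submitters' processing notes name MAS5, with no version, scaling target or detection call among the sources used here. The 2% trimmed means were 192 (retinoic acid) and 182 (control), and no further scaling was applied. Groups follow the treatment in the labels.

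Probe sets were named through the platform annotation: 34945 had 1 gene symbol, 932 several and 9160 none, and only those with 1 were used. Signals were raised to the array's median, the brightest probe set stood for a gene, and genes at least 2-fold apart were counted. For a gene above the median on a single array the fold is a bound ("at least"). No test was run. Named were all 9 genes and up to 4 measured genes of each other list with the largest ratios (2 where none passed 2-fold); other genes whose values are given (Col2a1, Prg4, Sox5, Cd47, Cd36, Tgfb1, Chad and the markers) are there for their role. The genes and lists were chosen with earlier results of these data known. The counting was run on simulated data as a check of the code. Those data held no variation between cultures, so they say nothing about the precision of these counts. Promoter windows came from RefSeq (GRCm38.p6). Python 3.11.15 ran matplotlib 3.10.9, statsmodels 0.14.6 (loess), scipy 1.17.1, pandas 2.3.3 and numpy 2.4.6.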

Additional observations from a re-analysis of the deposited data

How the results depend on the processing

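The 10 other settings were floors at percentile 30 or 70 of signal, no floor, the median added as an offset, division by the trimmed mean, loess, quantile normalization, centring on the median ratio, the median of the probe sets of each gene, and only probe sets unique to a transcript. In all 10, Matn1, Matn3 and Matn4 stayed past 2-fold lower and Thbs2 past 2-fold higher, and no other of the 9 genes passed. Over the 8 other lists, 15 genes passed in each direction, against 12 to 18 higher and 13 to 17 lower across the settings. The log2 ratio ranged from −2.55 to −2.43 for Matn1, −3.09 to −2.77 for Matn3, −3.00 to −2.66 for Matn4, −0.43 to −0.30 for Comp, −0.56 to −0.36 for Thbs1, 1.04 to 1.12 for Thbs2, −0.86 to −0.66 for Thbs3 and −0.97 to −0.85 for Thbs4. Matn2 was 0.65, but 0.15 with the median over its probe sets and −0.36 with only the unique one. Counts over all measured genes moved by more than 1.5 times with the floor, which also changes how many genes are measured. The cause was not tested. Of 11884 genes 777 were at least 2-fold higher, against 449 of 8443 with a floor at the 70th percentile and 2137 of 18193 with none. At least 2-fold lower were 516 of 11884, against 832 of 15117 at the 30th percentile, 260 of 8443 at the 70th and 2106 of 18193 with none. No paired analysis was possible because each group has 1 array. With 1 array per group, variation between cultures is unknown. Whether signals above 8000 understate a ratio was not tested.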
